A study of Mus musculus with 12 samples.

Results

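The genes examined were 6 matrix metalloproteinases (MMPs), *Mmp8*, *Mmp9*, *Mmp12*, *Mmp13*, *Mmp14* and *Mmp19*, and 3 tissue inhibitors of metalloproteinases (TIMPs), *Timp1*, *Timp2* and *Timp3*. They were taken by symbol from the table of gene counts, and gave 9 of its 55471 genes. All 9 were among the 18228 genes with enough counts to be tested. The set was chosen with values of these libraries in view: *Mmp9* was selected on its rise with knockdown and *Mmp12* on its count, which is among the highest of all genes. For this reason the knockdown differences of all 9 genes, and the level of *Mmp12*, are given below as a description with no test. The effects of IFN-β and the difference between the knockdown effects were not what the choice was made on, and they were tested. They share libraries with the knockdown differences, so for *Mmp9* these tests are not independent of its selection.

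The cells were dendritic cells (DCs) grown from the bone marrow of C57BL/6 mice in granulocyte-macrophage colony-stimulating factor (GM-CSF). All carried a retrovirus encoding a short hairpin RNA and a human CD8 reporter on which transduced cells were sorted. The hairpin targeted firefly luciferase (shControl) or *Ppargc1b*, the gene of the mitochondrial co-activator PGC-1β (sh*Ppargc1b*), and the cells were left unstimulated or were given interferon-β (IFN-β), an antiviral cytokine, for 6 h. Each of these 4 groups had 3 libraries, and the labels give neither the animals nor the cultures behind them, nor which hairpin was used. Errors therefore measure the spread between these libraries, which may be technical. Library totals were 49.9 to 77.7 M counts, and no pair of replicates agreed within sampling noise. The targeted gene was reduced and not removed. *Ppargc1b* stood at 33.3 to 36.7 CPM (counts scaled to a common library size) in unstimulated shControl and 18.6 to 20.3 CPM in unstimulated sh*Ppargc1b* libraries, and at 23.6 to 31.4 and 15.5 to 20.9 CPM after IFN-β. The fitted log2 fold changes of *Ppargc1b* were -0.83 ± 0.10 (SE, edgeR adjusted p = 3.2e-05) and -0.57 ± 0.11 (adjusted p = 9.5e-04).

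MMPs are zinc-dependent endopeptidases that cut collagens, elastin, proteoglycans and many cell-surface or soluble proteins. They are made as inactive precursors, and plasmin, the convertase furin or other MMPs remove the inhibitory propeptide. TIMPs bind the active site and block it. In myeloid cells these enzymes are known for opening basement membrane and tissue matrix during migration, and for trimming chemokines and cytokines. By role, MMP8 and MMP13 are collagenases, MMP9 is a gelatinase that degrades denatured collagen and type IV collagen, MMP12 is the macrophage elastase, MMP14 is anchored in the cell membrane and MMP19 is a secreted enzyme outside these classes. TIMP1 and TIMP2 are soluble, whereas TIMP3 is held in the matrix and also inhibits ADAM-family sheddases.

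The sequence that makes these proteins one enzyme family is the zinc-binding site of the catalytic domain. Its coding stretch is shown for the 6 MMPs, from the GENCODE M21 transcripts (GRCm38), with the codons of the 3 histidines that hold the zinc ion in capitals.
Mmp8: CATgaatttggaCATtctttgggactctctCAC
Mmp13: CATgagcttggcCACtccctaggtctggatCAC
Mmp9: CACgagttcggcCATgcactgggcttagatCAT
Mmp12: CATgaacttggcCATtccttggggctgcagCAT
Mmp14: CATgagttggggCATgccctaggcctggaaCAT
Mmp19: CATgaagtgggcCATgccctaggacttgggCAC
Each stretch is 33 bases. In the order printed they lie at chr9:7563086-7563118, chr9:7276573-7276605, chr2:164951133-164951165, chr9:7352914-7352946, chr14:54437627-54437659 and chr10:128795673-128795705, all on the plus strand. The site is in exon 8 of *Mmp9* and in exon 5 of the other MMPs. Between any 2 of the 6 genes, 20 to 25 of the 33 bases were the same.

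The inhibitors act through the start of the mature protein, where a pair of cysteines flanking 1 residue sits over the zinc ion. The coding stretch from this pair is shown for the 3 TIMPs, with both cysteine codons in capitals.
Timp1: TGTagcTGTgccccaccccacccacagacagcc
Timp2: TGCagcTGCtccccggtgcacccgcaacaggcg
Timp3: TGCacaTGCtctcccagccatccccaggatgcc
These stretches lie at chrX:20871111-20871143 (plus strand, exon 2), chr11:118354980-118355012 (minus strand, exon 1) and chr10:86300923-86300955 (plus strand, exon 1), and any 2 of them shared 19 or 20 of 33 bases.

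*Mmp13*, *Mmp12* and *Mmp8* lie in one array of 10 MMP genes on chromosome 9 that spans 427072 bp, in the order *Mmp13*, *Mmp12*, *Mmp1b*, *Mmp3*, *Mmp1a*, *Mmp10*, *Mmp8*, *Mmp27*, *Mmp20* and *Mmp7*. The 3 members of this array were at 462 CPM or more in every library, while the genes between *Mmp12* and *Mmp8* were almost silent. *Mmp1b*, *Mmp3* and *Mmp1a* had at most 5 counts in any library, and *Mmp10* averaged 0.486 CPM over all libraries. On the other side of *Mmp8*, *Mmp27* averaged 2.79 CPM, and *Mmp20* and *Mmp7* had at most 8 counts in a library. The remaining members are single genes on chromosomes 2 (*Mmp9*), 14 (*Mmp14*), 10 (*Mmp19* and *Timp3*), X (*Timp1*) and 11 (*Timp2*).

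Promoter sequence from RefSeq (GRCm38.p6) was held for 7 of the 9 genes, 8 windows in all. The 250 bases before each start were searched on both strands for the AP-1 motif TGANTCA, an NF-κB motif (GGG and CC with any 5 bases between them) and an interferon response element-like motif (GAAA, any 2 bases, GAAA). The *Mmp13* window and the downstream *Mmp12* window are shown because each holds an AP-1 match near the start. Matches are in capitals, and none overlap in the windows shown.
Mmp13 promoter: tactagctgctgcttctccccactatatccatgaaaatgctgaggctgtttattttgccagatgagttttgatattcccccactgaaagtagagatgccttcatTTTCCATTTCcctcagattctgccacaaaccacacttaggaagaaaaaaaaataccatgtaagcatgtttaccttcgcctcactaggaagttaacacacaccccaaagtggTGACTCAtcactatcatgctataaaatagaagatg
Mmp12 promoter, downstream start: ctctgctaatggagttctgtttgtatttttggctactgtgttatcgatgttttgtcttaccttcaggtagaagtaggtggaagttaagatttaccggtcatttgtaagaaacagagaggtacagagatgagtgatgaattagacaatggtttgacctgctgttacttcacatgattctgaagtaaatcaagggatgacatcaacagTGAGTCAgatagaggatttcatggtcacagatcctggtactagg
The first window is chr9:7272264-7272513 and the second chr9:7347124-7347373, both on the plus strand. In *Mmp13* the AP-1 match begins at position -35 from the start and an interferon response element-like match, on the other strand, at -146. In *Mmp12* the AP-1 match begins at -44. Of all 32851 promoters in the table, 6.75% held the AP-1 motif, 2.98% the interferon response element-like motif and 45.8% the NF-κB motif. The NF-κB motif was found 4 times in *Timp1*, 2 times in *Timp3* and 1 time at the other *Mmp12* start, and the *Mmp8*, *Mmp14* and *Timp2* windows held none of the 3 motifs. A match here is only a description of the letters.

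*Mmp12* stood far above the other members, which is what it was selected on. Its count took 0.845% to 1.79% of a library, and it ranked between 1 and 8 of all genes. It was the most counted gene in all 3 unstimulated sh*Ppargc1b* libraries and ranked 1 to 2 in IFN-β-treated sh*Ppargc1b* libraries, whereas its ranks in shControl libraries were 3 to 7 unstimulated and 5 to 8 with IFN-β. Levels of different genes were compared as CPM per kilobase of exon, which corrects for gene length. In unstimulated shControl cells the order on this scale was *Mmp12* (1394 ± 81.5, SD, n = 3), *Mmp8* (294 ± 42.5), *Mmp13* (208 ± 30.3), *Mmp19* (126 ± 4.13), *Mmp14* (42.0 ± 1.76), *Timp2* (11.7 ± 0.629), *Timp1* (6.38 ± 1.7), *Mmp9* (3.85 ± 0.624) and *Timp3* (0.505 ± 0.133). No neighbours in this order had overlapping libraries. *Mmp12* was 4.74 times the level of the next gene, and *Mmp9*, although best known as a myeloid gelatinase, ranked 8 of 9.

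With knockdown *Mmp9* moved up this order to rank 6 (17.6 ± 1.25 CPM per kb) in unstimulated cells, where its libraries overlapped those of *Timp1* (15.9 ± 0.924), and *Mmp8* and *Mmp13* could not be separated (469 ± 79.9 and 466 ± 79.3). After IFN-β *Mmp13* ranked 2 and *Mmp8* 3 in both hairpin groups. *Timp2*, the highest of the 3 inhibitors in both shControl groups, was below *Timp1* in both sh*Ppargc1b* groups, by 2.33 times in unstimulated cells. *Timp1* and *Timp2* overlapped only in IFN-β-treated shControl cells. *Timp3* was last in all 4 groups. The plot of levels per length and TIMP shares shows both orders.

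**Figure D1:**
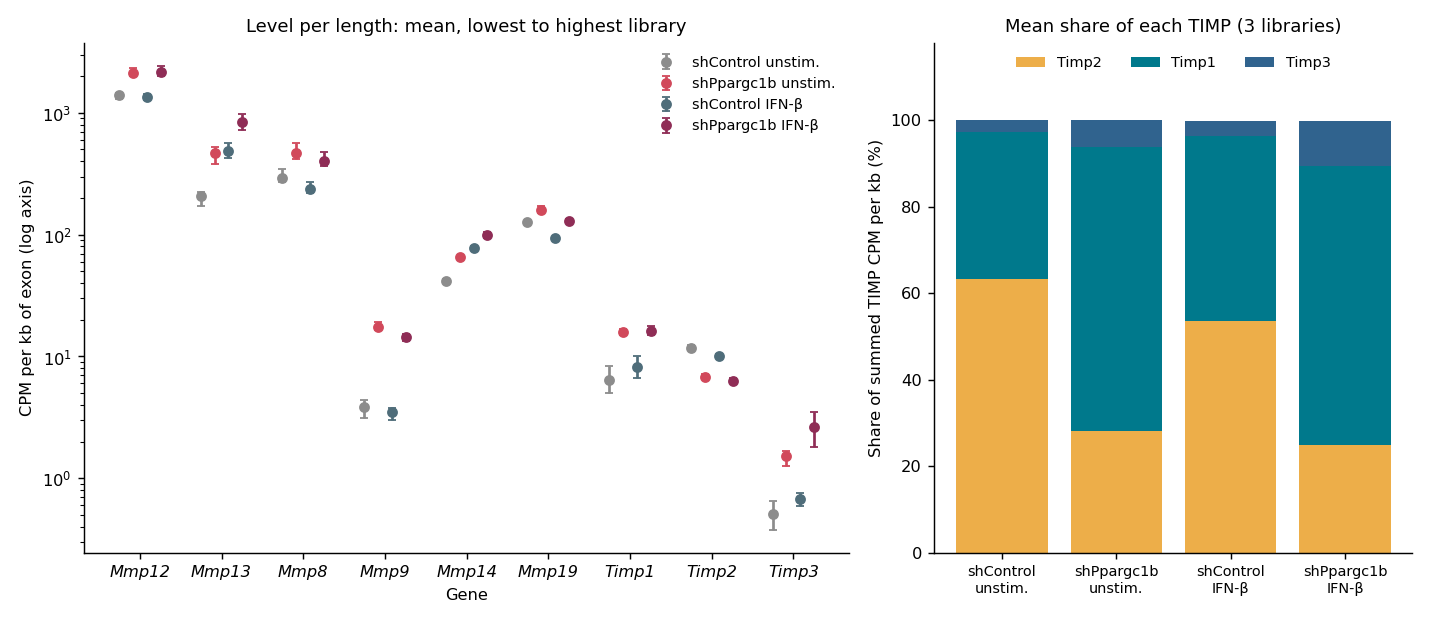
Left, CPM per kb of exon of each gene on a log axis, with the mean of 3 libraries as a point and the lowest to highest library as the bar, for the 4 groups. Right, the mean share of each TIMP in the summed TIMP CPM per kb: *Timp2* held 63.4% in unstimulated shControl and 28.2% in unstimulated sh*Ppargc1b* cells, and *Timp1* 33.9% and 65.6%.

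The makeup of the inhibitors differed between hairpins while their sum differed less. Summed over the 3 genes, TIMP level was 16.7 to 21.3 CPM per kb in unstimulated shControl and 23.2 to 25.0 in unstimulated sh*Ppargc1b* libraries, and 17.7 to 20.9 against 23.5 to 26.4 after IFN-β. Within it the *Timp2* share was 58.2% to 67.1% in unstimulated shControl and 25.9% to 29.7% in unstimulated sh*Ppargc1b* libraries. After IFN-β the *Timp2* shares were 48.2% to 59.2% and 23.1% to 28.4%. The libraries of the hairpin groups did not overlap in either treatment, for the sum or for the share. The summed level of the 6 MMPs was 1910 to 2171 CPM per kb in unstimulated shControl and 3065 to 3620 in unstimulated sh*Ppargc1b* libraries, and *Mmp12* alone made up 58.5% to 68.4% of it in every library. Without *Mmp12*, the remaining 5 MMPs summed to 674 ± 67.6 and 1179 ± 141 CPM per kb in unstimulated cells, and to 898 ± 94.3 and 1488 ± 202 after IFN-β (SD, n = 3). RNA levels say nothing of how much active enzyme or inhibitor the cells held.

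Under knockdown all 6 MMPs, *Timp1* and *Timp3* were higher and *Timp2* was lower, and for each of the 9 genes the 3 sh*Ppargc1b* libraries lay wholly outside the range of the 3 shControl libraries in both treatments. Of all genes tested, 36.8% of unstimulated and 38.7% of IFN-β comparisons had libraries that did not overlap. By the threshold applied to all genes (edgeR, adjusted p under 0.05), 8 of the 9 lay on the higher and 1 on the lower side in both treatments, where 12.4% and 11.1% of all genes were called higher and lower in unstimulated and 11.5% and 12.7% in IFN-β-treated cells. These counts describe a set picked with the knockdown in view, and nothing is read from them. The median log2 fold change over the 9 genes was 0.67 without and 0.76 with IFN-β, where that over all genes tested was 0.00 and -0.01. These are bulk libraries, in which fewer cells of a type and less RNA per cell cannot be told apart.

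**Figure D2:**
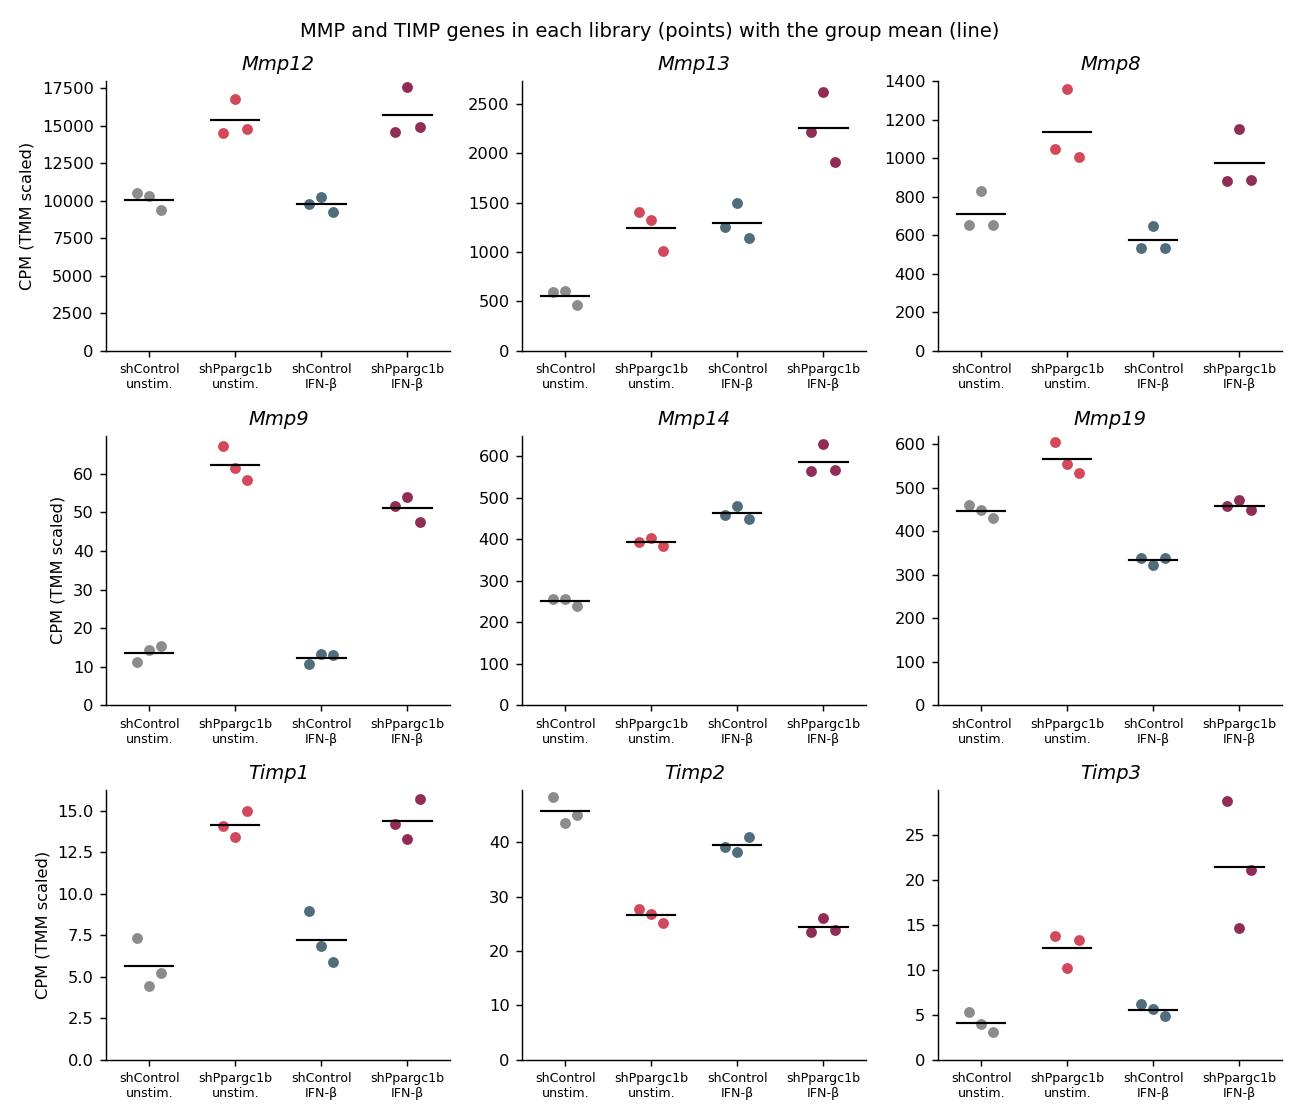
CPM (scaled by trimmed mean of M-values) of each gene in each library, 3 points per group with the mean as a line, each panel from 0. For *Mmp9* the 6 sh*Ppargc1b* libraries sit between 47.5 and 67.1 CPM and the 6 shControl libraries between 10.6 and 15.4 CPM.

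The gelatinase *Mmp9* had the largest knockdown difference of the set, and it was selected on this difference. It was at 11.2, 14.3 and 15.4 CPM in unstimulated shControl and at 67.1, 61.4 and 58.4 CPM in unstimulated sh*Ppargc1b* libraries. After IFN-β it was at 10.6, 13.4 and 13.0 CPM against 51.6, 54.1 and 47.5 CPM. All sh*Ppargc1b* libraries were at least 3 times above every shControl library, and the fitted log2 fold changes were 2.19 ± 0.11 (SE) unstimulated and 2.05 ± 0.11 after IFN-β, 4.57-fold and 4.13-fold. The raw counts behind these values were 491 to 923 in shControl and 2574 to 4229 in sh*Ppargc1b* libraries.

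The collagenase gene *Mmp13* was at 600, 605 and 462 CPM in unstimulated shControl and at 1409, 1325 and 1007 CPM in unstimulated sh*Ppargc1b* libraries. With IFN-β the values were 1252, 1498 and 1144 against 2220, 2626 and 1918 CPM. Its log2 fold change with knockdown was 1.17 ± 0.14 unstimulated and 0.80 ± 0.14 after IFN-β. Unstimulated sh*Ppargc1b* cells thus had about as much *Mmp13* RNA (1247 ± 212 CPM) as IFN-β-treated shControl cells (1298 ± 181 CPM), and the libraries of those groups overlapped.

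*Mmp8*, the neutrophil collagenase, was at 654, 832 and 653 CPM in unstimulated shControl and 1046, 1360 and 1007 CPM in unstimulated sh*Ppargc1b* libraries. After IFN-β it was at 535, 649 and 535 CPM against 882, 1150 and 888 CPM. The log2 fold changes were 0.67 ± 0.13 and 0.76 ± 0.13, the second within 1 SE of that of *Mmp13* after IFN-β. In every group the second library was the highest for *Mmp8*.

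The elastase gene *Mmp12* was at 10522, 10326 and 9417 CPM in unstimulated shControl and 14553, 16800 and 14769 CPM in unstimulated sh*Ppargc1b* libraries. In IFN-β-treated cells it was at 9800, 10236 and 9244 CPM against 14616, 17577 and 14896 CPM. Its fold changes were close to each other in the 2 treatments, 0.61 ± 0.08 and 0.69 ± 0.08 on the log2 scale, or 1.52-fold and 1.61-fold. Because of its high level this moderate fold was by far the largest absolute gain of the set, from 10089 ± 590 to 15374 ± 1240 CPM (mean ± SD) in unstimulated cells.

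The membrane-anchored *Mmp14*, whose protein together with TIMP2 activates the MMP2 precursor at the cell surface, was at 255, 257 and 238 CPM in unstimulated shControl and 393, 402 and 383 CPM in unstimulated sh*Ppargc1b* libraries. With IFN-β it was at 459, 481 and 448 CPM against 564, 630 and 566 CPM. The 4 groups did not overlap at any point, and the knockdown differences were 0.65 ± 0.05 and 0.34 ± 0.05 on the log2 scale. *Mmp19* had the smallest unstimulated difference, from 460, 450 and 431 to 606, 555 and 534 CPM, and from 338, 323 and 339 to 457, 472 and 448 CPM after IFN-β. Its log2 fold changes were 0.34 ± 0.05 and 0.46 ± 0.05.

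Among the inhibitors, *Timp1* and *Timp3* were higher with knockdown and *Timp2* was lower. *Timp1* was at 7.35, 4.44 and 5.2 CPM in unstimulated shControl and 14.1, 13.4 and 15 CPM in unstimulated sh*Ppargc1b* libraries. After IFN-β it was at 8.94, 6.88 and 5.91 against 14.2, 13.3 and 15.7 CPM. The log2 fold changes were 1.32 ± 0.16 and 1.0 ± 0.16. These are low levels, with 271 to 420 counts in shControl and 719 to 1087 in sh*Ppargc1b* libraries. *Timp1* lies inside *Syn1* on the opposite strand without sharing exon sequence, and *Syn1* did not pass the threshold with knockdown (log2 fold change -0.13 ± 0.08 unstimulated, edgeR adjusted p = 0.298).

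*Timp2* was at 48.4, 43.6 and 45.1 CPM in unstimulated shControl and 27.7, 26.8 and 25.2 CPM in unstimulated sh*Ppargc1b* libraries. In IFN-β-treated cells it was at 39.2, 38.3 and 40.9 against 23.5, 26.0 and 23.8 CPM. The level in the knockdown groups was 58.2% and 61.9% of that in shControl, and the log2 fold changes were -0.78 ± 0.06 and -0.69 ± 0.06. No other member was lower with knockdown.

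*Timp3*, the lowest member per length, was at 5.25, 4.01 and 3.09 CPM in unstimulated shControl and 13.7, 10.2 and 13.3 CPM in unstimulated sh*Ppargc1b* libraries. After IFN-β it was at 6.22, 5.61 and 4.83 against 28.7, 14.6 and 21.1 CPM. The log2 fold changes were 1.59 ± 0.22 and 1.96 ± 0.22, and the coefficient of variation was 32.8% in IFN-β-treated sh*Ppargc1b* libraries. *Timp3* lies inside *Syn3*, a gene on the opposite strand, and 1733 bp (21.3%) of its exon sequence is shared with *Syn3* exons. *Syn3* rose with it, from 4.56 ± 0.216 to 10.0 ± 0.271 CPM in unstimulated cells (log2 fold change 1.14 ± 0.13, edgeR adjusted p = 1.6e-05) and by 1.14 ± 0.13 after IFN-β (adjusted p = 1.7e-05). The strand setting of the counting is not given in the sources used here, so reads over the shared stretch cannot be told apart between the 2 genes. *Mmp19* shares 789 bp (22.3%) of its exons with *Tmem198b* in the same way, and *Tmem198b* was at 8.19 to 11.4 CPM in every library, far below *Mmp19*.

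**Figure D3:**
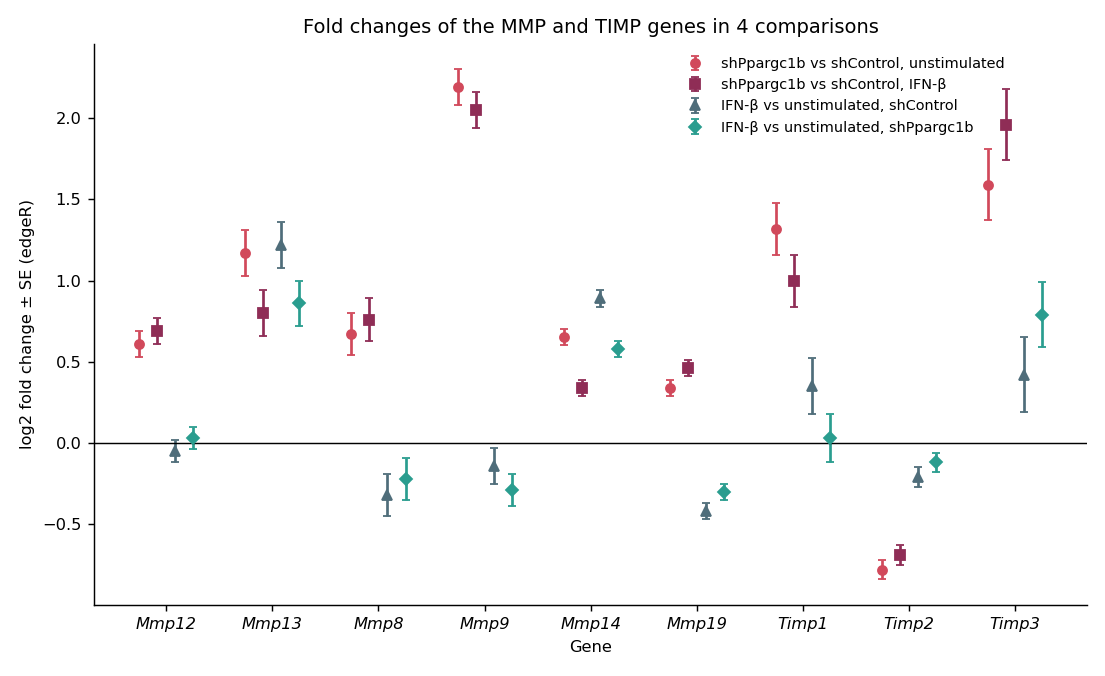
Log2 fold change ± SE from edgeR for each gene in 4 comparisons, the knockdown difference in each treatment and the IFN-β difference in each hairpin group. Both knockdown values lie above 0 for all but *Timp2*, while the IFN-β values lie well above 0 for *Mmp13* and *Mmp14* and below 0 for *Mmp19*.

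With IFN-β, some members rose and others fell. In shControl cells *Mmp13* and *Mmp14* rose and *Mmp19* and *Timp2* fell, 2 of 9 genes higher and 2 lower, where 23.7% and 24.6% of all genes tested were called higher and lower. These shares are near the background. The libraries did not overlap for 5 of the 9 genes, against 56.7% of all genes. *Mmp13* had the largest change, from 555 ± 81.0 to 1298 ± 181 CPM (log2 fold change 1.22 ± 0.14, edgeR adjusted p = 2.8e-06). *Mmp14* rose from 250 ± 10.5 to 463 ± 16.8 CPM (0.89 ± 0.05, adjusted p = 5.6e-10).

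*Mmp19* went the other way, from 447 ± 14.6 to 333 ± 8.95 CPM (-0.42 ± 0.05, edgeR adjusted p = 2.2e-06), and *Timp2* fell by a small amount, from 45.7 ± 2.45 to 39.5 ± 1.32 CPM (-0.21 ± 0.06, adjusted p = 0.0059). Without the second IFN-β-treated shControl library the *Timp2* value was -0.17 with an adjusted p of 0.051. *Mmp12* gave a log2 fold change of -0.05 ± 0.07 (adjusted p = 0.636) and *Mmp9* one of -0.14 ± 0.11 (adjusted p = 0.321), and the libraries overlapped for both. *Mmp8* missed the threshold at -0.32 ± 0.13 (adjusted p = 0.0565) although its libraries did not overlap, and it passed in 11 of 20 alternative analyses. Its edgeR adjusted p in those ran from 7.1e-12 (no filter) to 0.0492 (without the first unstimulated sh*Ppargc1b* library). With a block for runs of library codes it was 1.4e-06. *Timp1* (0.35 ± 0.17, adjusted p = 0.0991) and *Timp3* (0.42 ± 0.23, adjusted p = 0.151) did not pass, but *Timp1* passed in 5 and *Timp3* in 3 of 20 alternative analyses. *Timp1* passed with DESeq2 (adjusted p = 0.0473), with no filter, with a block for runs of library codes and without the first unstimulated or the third IFN-β-treated shControl library (edgeR adjusted p = 0.00711, 0.0419, 0.00664 and 0.0311). *Timp3* passed with no filter, with the block and with the compared groups alone (edgeR adjusted p = 8.2e-04, 0.0329 and 0.0477). *Mmp9* passed as lower without the first unstimulated shControl library (-0.28, edgeR adjusted p = 0.0274) and with library totals (-0.38, adjusted p = 0.00689). With library totals *Mmp12* also passed as lower (-0.29, edgeR adjusted p = 0.00252), where the median of all genes was -0.27.

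In sh*Ppargc1b* cells 3 of 9 genes were called higher and 2 lower with IFN-β, against 21.4% and 21.2% of all genes, and 5 of 9 had libraries that did not overlap, against 50.1%. *Mmp13* rose from 1247 ± 212 to 2255 ± 355 CPM (log2 fold change 0.86 ± 0.14, edgeR adjusted p = 1.3e-04) and *Mmp14* from 392 ± 9.56 to 587 ± 37.6 CPM (0.58 ± 0.05, adjusted p = 1.2e-07). *Timp3* rose from 12.4 ± 1.89 to 21.5 ± 7.04 CPM (0.79 ± 0.20, adjusted p = 0.0051), while *Syn3* gave 0.17 ± 0.13 (adjusted p = 0.308). *Mmp19* fell from 565 ± 37.3 to 459 ± 12.1 CPM (-0.30 ± 0.05, adjusted p = 9.7e-05).

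*Mmp9* also fell, from 62.3 ± 4.42 to 51.1 ± 3.33 CPM (-0.29 ± 0.10, edgeR adjusted p = 0.0274). The unstimulated sh*Ppargc1b* libraries on 1 side of this comparison are among those on which *Mmp9* was selected. Its adjusted p was between 0.0562 and 0.115 without the first or the second unstimulated or without the first or the third IFN-β-treated sh*Ppargc1b* library. *Mmp12* (0.03 ± 0.07, adjusted p = 0.788), *Mmp8* (-0.22 ± 0.13, adjusted p = 0.184), *Timp1* (0.03 ± 0.15, adjusted p = 0.917) and *Timp2* (-0.12 ± 0.06, adjusted p = 0.111) did not pass. *Mmp8* passed as lower in 4 of 20 alternative analyses, with the block for runs of library codes, with no filter, with library totals and without the second IFN-β-treated sh*Ppargc1b* library (edgeR adjusted p = 6.0e-05, 6.7e-07, 0.00938 and 0.0339). *Timp2* passed as lower with library totals (-0.32, edgeR adjusted p = 1.6e-04), where the median of all genes was -0.22. The IFN-β and knockdown comparisons share libraries, so their values are not independent of each other. An exact two-sided permutation test of 3 libraries against 3 cannot give a p below 0.1, and it gave 0.1 for each member whose libraries did not overlap in an IFN-β comparison.

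The knockdown effect with IFN-β was set against that without it in an interaction term, and no member passed, where 0.73% of all genes did. The largest standardised difference was in *Mmp14*, whose knockdown log2 fold change was smaller by 0.31 with IFN-β (-0.31 ± 0.07, edgeR adjusted p = 0.0585). *Mmp13* gave -0.37 ± 0.20 (adjusted p = 0.564) and *Timp3* 0.37 ± 0.31 (adjusted p = 0.774). *Mmp9* gave -0.15 ± 0.15 (adjusted p = 0.829), a term built from the knockdown differences on which it was selected. *Mmp12*, *Mmp8* and *Timp2* gave 0.08 ± 0.11, 0.09 ± 0.18 and 0.09 ± 0.08 (adjusted p = 0.891, 0.932 and 0.803). *Mmp19* gave 0.12 ± 0.07 (adjusted p = 0.575) and *Timp1* -0.32 ± 0.23 (adjusted p = 0.699). The *Mmp14* and *Mmp13* results depended on the analysis. *Mmp14* passed with DESeq2 (adjusted p = 0.00318), with no filter on low counts, with a block for runs of library codes and without the second IFN-β-treated sh*Ppargc1b* library (edgeR adjusted p = 4.3e-04, 0.00397 and 0.00917). *Mmp13* passed with no filter and with the block (edgeR adjusted p = 5.6e-07 and 0.0239). For the other 7 genes an IFN-β dependence of the knockdown effect was not detectable, which does not show that the effects were equal.

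Of 18 further MMP and TIMP genes, 11 (*Mmp1a*, *Mmp1b*, *Mmp3*, *Mmp7*, *Mmp15*, *Mmp16*, *Mmp17*, *Mmp20*, *Mmp21*, *Mmp24* and *Timp4*) had too few counts to be tested, with at most 12 in any library. Of the 7 tested, 4 rose and 0 fell with knockdown in each treatment by the edgeR test. Of all genes tested, 12.4% and 11.1% were called higher and lower with knockdown in unstimulated cells, and 11.5% and 12.7% after IFN-β. With IFN-β the shares were 23.7% and 24.6% in shControl and 21.4% and 21.2% in sh*Ppargc1b* cells. These shares are also the background for the lists and markers below. All were chosen with earlier results known, and none was tested as a set. *Mmp2*, the second gelatinase, rose from 12.2 ± 1.31 to 24.0 ± 3.90 CPM in unstimulated cells (log2 fold change 0.97 ± 0.11, edgeR adjusted p = 1.5e-05) and from 28.9 ± 2.20 to 46.2 ± 4.53 CPM after IFN-β (0.67 ± 0.11, adjusted p = 2.7e-04). *Mmp25*, which encodes a membrane-anchored MMP known from leukocytes, rose from 31.8 ± 2.15 to 60.2 ± 1.57 CPM (0.92 ± 0.08, adjusted p = 1.3e-06) and from 54.4 ± 3.61 to 101 ± 13.8 CPM (0.89 ± 0.08, adjusted p = 2.1e-06).

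The other genes that rose were at low levels. *Mmp23* rose from 0.828 to 1.47 CPM (0.83 ± 0.22, edgeR adjusted p = 0.0114) and *Mmp10*, the neighbour of *Mmp8*, from 0.267 to 0.830 CPM (1.62 ± 0.37, adjusted p = 0.00476) in unstimulated cells, and both also passed after IFN-β. *Mmp11*, *Mmp27* and *Mmp28* did not pass, and their log2 fold changes were -0.90 ± 0.39, -0.48 ± 0.22 and -1.31 ± 0.56 in unstimulated cells. With IFN-β in shControl cells 3 of the 7 rose, *Mmp2* (1.25 ± 0.11, adjusted p = 1.9e-07), *Mmp25* (0.77 ± 0.08, adjusted p = 1.3e-06) and *Mmp28* (2.17 ± 0.41, adjusted p = 4.1e-04, at 0.171 to 0.780 CPM), and *Mmp11* fell (-1.17 ± 0.41, adjusted p = 0.0269). The same 3 rose and 0 fell in sh*Ppargc1b* cells. *Mmp2* and *Mmp14* thus both passed as higher with IFN-β.

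Genes whose products activate, dock or clear MMPs were counted as a list of 16, of which 14 were tested. With knockdown 9 rose and 1 fell in unstimulated cells, where 12.4% and 11.1% of all genes were called higher and lower. After IFN-β 8 rose and 2 fell, where 11.5% and 12.7% of all genes were called higher and lower. The median log2 fold changes of the list were 0.69 and 0.55. The urokinase axis, which makes plasmin at the cell surface, was among them: *Plau*, the urokinase gene, rose from 151 ± 16.1 to 316 ± 29.7 CPM in unstimulated cells (1.06 ± 0.14, edgeR adjusted p = 4.2e-05) and from 144 ± 29.2 to 302 ± 59.6 CPM after IFN-β (1.07 ± 0.14, adjusted p = 4.4e-05). Its receptor gene *Plaur* rose by 0.57 ± 0.09 and 0.72 ± 0.09 (adjusted p = 1.8e-04 and 2.5e-05), and *Plat*, the tissue plasminogen activator gene, rose by 1.42 ± 0.24 and 1.67 ± 0.20 at group means of 0.442 to 3.73 CPM (adjusted p = 4.1e-04 and 2.3e-05).

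Inhibitors of plasminogen activators also rose. *Serpinb2* rose from 41.3 ± 6.21 to 97.9 ± 19.7 CPM in unstimulated cells (1.25 ± 0.15, edgeR adjusted p = 1.6e-05) and *Serpine2* from 1.67 ± 0.277 to 7.44 ± 1.71 CPM (2.14 ± 0.21, adjusted p = 2.6e-06). *Itgb3*, an integrin subunit, rose from 6.03 ± 0.869 to 21.9 ± 1.47 CPM (1.85 ± 0.17, adjusted p = 1.8e-06), and *Lcn2*, whose product forms a complex with MMP9, rose from 11.1 ± 4.24 to 22.7 ± 4.87 CPM (1.02 ± 0.28, adjusted p = 0.0142). *Furin* gave -0.20 ± 0.07 in unstimulated cells (adjusted p = 0.0524) and fell by 0.35 after IFN-β (-0.35 ± 0.07, adjusted p = 0.002), and *Lrp1*, the clearance receptor, fell by 0.21 and 0.17 (adjusted p = 0.0109 and 0.0347). *Reck*, a membrane-bound MMP inhibitor, gave 0.04 ± 0.27 (adjusted p = 0.94). IFN-β in shControl cells raised *Plat* and *Furin* and lowered *Cd44* and *Lrp1*, while *Plau* gave -0.07 in both hairpin groups and did not pass.

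Matrix proteins that MMPs cut moved in both directions with knockdown. Of 23 listed, 20 were tested, 8 rose and 2 fell in unstimulated cells, and 7 rose and 3 fell after IFN-β. Osteopontin (*Spp1*) rose from 481 ± 43.7 to 1362 ± 74.2 CPM (1.5 ± 0.08, edgeR adjusted p = 9.9e-09) and from 506 ± 59.1 to 1389 ± 74.7 CPM (1.46 ± 0.08, adjusted p = 2.0e-08). Fibronectin (*Fn1*) fell from 5669 ± 439 to 3409 ± 352 CPM (-0.73 ± 0.08, adjusted p = 7.9e-06) and versican (*Vcan*) from 304 ± 19.4 to 158 ± 1.88 CPM (-0.95 ± 0.05, adjusted p = 4.7e-09) in unstimulated cells, and both also fell after IFN-β. *Nid1*, a basement membrane gene, rose by 1.41 ± 0.27 and 1.59 ± 0.27 at about 1 CPM (adjusted p = 0.00109 and 5.3e-04). *Lama5* rose after IFN-β from 1.05 ± 0.462 to 2.03 ± 0.520 CPM (0.92 ± 0.27, adjusted p = 0.0231). The gene of the elastic fibre protein fibrillin, *Fbn1*, gave 0.32 ± 0.15 in unstimulated cells (adjusted p = 0.164) and fell in IFN-β-treated cells (-0.64 ± 0.11, adjusted p = 3.9e-04).

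**Figure D4:**
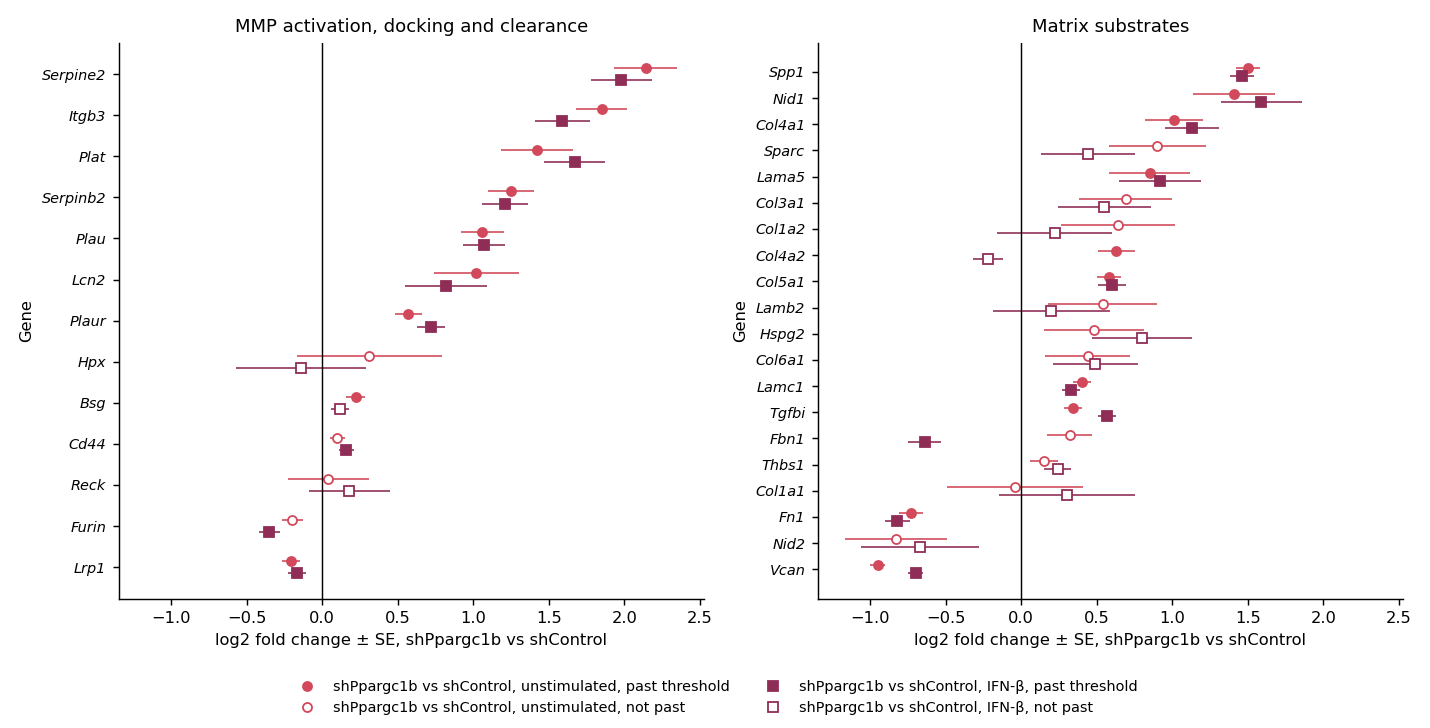
Log2 fold change ± SE of sh*Ppargc1b* against shControl for tested genes that activate, dock or clear MMPs (left, 1 listed gene not shown) and for matrix substrates (right), unstimulated as circles and IFN-β as squares, filled where the edgeR adjusted p is under 0.05. *Serpine2*, *Itgb3*, *Plat*, *Serpinb2*, *Plau* and *Spp1* are filled and above 1 in both treatments, and *Fn1* and *Vcan* are filled and below 0.

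With IFN-β in shControl cells 3 matrix genes rose and 5 fell. *Fbn1* rose from 0.705 ± 0.102 to 8.99 ± 0.403 CPM (3.67 ± 0.13, edgeR adjusted p = 2.0e-12), *Col4a2* from 1.2 ± 0.0283 to 7.45 ± 0.398 CPM (2.63 ± 0.11, adjusted p = 2.0e-11) and *Vcan* from 304 ± 19.4 to 751 ± 19.4 CPM (1.30 ± 0.05, adjusted p = 1.5e-12). *Fn1* (-0.87 ± 0.08), *Col5a1* (-0.88 ± 0.09), *Lamc1* (-0.16 ± 0.06), *Thbs1* (-0.76 ± 0.09) and *Tgfbi* (-0.18 ± 0.06) fell, with adjusted p from 2.0e-07 to 0.0351. In sh*Ppargc1b* cells *Fbn1*, *Col4a2* and *Vcan* rose by 2.71 ± 0.13, 1.78 ± 0.11 and 1.55 ± 0.05 (adjusted p = 8.3e-11, 1.7e-09 and 3.1e-13), and *Fn1*, *Col5a1*, *Lamc1* and *Thbs1* fell.

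Proteases of the ADAM and ADAMTS families, some of which TIMP3 inhibits, did not share 1 direction. Of 15 tested, 4 rose and 5 fell with knockdown in each treatment. *Adamts1* rose by 1.65 ± 0.17 and 1.08 ± 0.16 at 1.15 to 4.07 CPM (edgeR adjusted p = 3.9e-06 and 1.4e-04), *Adam19* by 0.70 ± 0.12 and 0.98 ± 0.12 (adjusted p = 6.2e-04 and 3.2e-05) and *Adam23* by 0.71 ± 0.08 and 0.84 ± 0.08 (adjusted p = 1.8e-05 and 5.0e-06). The sheddase gene *Adam10* fell by 0.28 in unstimulated and by 0.19 in IFN-β-treated cells (adjusted p = 1.2e-04 and 0.0029). *Adam33* rose with IFN-β, from 0.983 ± 0.0778 to 9.77 ± 0.493 CPM in shControl cells (3.31 ± 0.13, adjusted p = 4.0e-12), and with IFN-β present it was lower in the knockdown (-0.89 ± 0.11, adjusted p = 2.2e-05). With IFN-β 5 of the 15 rose and 2 fell in shControl cells, *Adamts10* among them (-0.80 ± 0.07, adjusted p = 5.0e-08), and 5 rose and 3 fell in sh*Ppargc1b* cells, *Adamtsl4* among them (-0.46 ± 0.13, adjusted p = 0.00872).

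Transcription factors known to act on MMP promoters formed a list of 20, all tested, of which 7 rose and 2 fell with knockdown in unstimulated cells and 6 rose and 1 fell after IFN-β. *Ets2* rose by 0.71 ± 0.06 and 0.50 ± 0.06 (edgeR adjusted p = 1.5e-06 and 4.5e-05) and the AP-1 subunit gene *Fosl1* by 0.83 ± 0.17 and 0.57 ± 0.18 at 2.66 to 6.75 CPM (adjusted p = 0.00183 and 0.0307). *Relb*, an NF-κB subunit gene, rose by 0.42 ± 0.05 and 0.44 ± 0.05 (adjusted p = 8.6e-06 and 6.5e-06). *Jun* gave -0.05 ± 0.05 (adjusted p = 0.492) and *Fosl2* -0.02 ± 0.07 (adjusted p = 0.898) in unstimulated cells. The 2 that fell there were *Pparg* (-0.52 ± 0.09, adjusted p = 6.4e-04) and *Runx1* (-0.19 ± 0.04, adjusted p = 0.00244), and *Cebpb* was the 1 that fell after IFN-β (-0.29 ± 0.06, adjusted p = 0.00237).

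IFN-β in shControl cells raised 8 and lowered 8 of these 20. *Atf3* rose by 0.73 ± 0.05 (edgeR adjusted p = 1.6e-08), and *Pparg* and *Batf* fell, with log2 fold changes of -1.31 ± 0.10 and -0.82 ± 0.11 (adjusted p = 1.5e-08 and 1.1e-05). *Fos*, *Fosl1* and *Fosl2* also fell, at -0.56 ± 0.13, -0.51 ± 0.18 and -0.57 ± 0.07 (adjusted p = 0.00217, 0.0282 and 1.1e-05).

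Several members are known from other cell types, so markers of those cells were read in the same libraries. Neutrophil-like markers, of interest for *Mmp8* and *Mmp9*, summed to 42.7 to 97.5 CPM in unstimulated shControl and 92.0 to 162 CPM in unstimulated sh*Ppargc1b* libraries, and to 40.1 to 102 and 88.7 to 166 CPM after IFN-β. Of the 10, 2 rose with knockdown, *S100a8* (0.83 ± 0.26 unstimulated, edgeR adjusted p = 0.0322) and *Cxcr2* (0.74 ± 0.22, adjusted p = 0.0214), while *Ly6g* gave -0.42 ± 0.42 (adjusted p = 0.543) and *Ltf* 0.34 ± 0.49 (adjusted p = 0.694). In the same libraries *Mmp8* was at 535 to 1360 CPM. *Mmp9* was at 10.6 to 15.4 CPM in shControl and 47.5 to 67.1 CPM in sh*Ppargc1b* libraries. These CPM values are not corrected for gene length, so levels of different genes are not ranked by them. The part of neutrophil-like cells in the *Mmp8* and *Mmp9* differences was not tested.

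Most dendritic-like markers were higher with knockdown, 6 of 8 tested in unstimulated and 7 of 8 in IFN-β-treated cells, with 0 lower. The sizes differed. *H2-Ab1* did not pass in either treatment (0.13 ± 0.09 and 0.11 ± 0.09, edgeR adjusted p = 0.333 and 0.393). *Dpp4* did not pass in unstimulated cells (0.28 ± 0.12, adjusted p = 0.125), and *Itgax* rose by 0.26 ± 0.05 and 0.20 ± 0.05 (adjusted p = 0.0018 and 0.0103). RNA of *Ccr7*, the gene of a receptor for homing to lymph nodes, rose by 1.32 ± 0.07 in unstimulated cells (edgeR adjusted p = 1.2e-08). By flow cytometry the paper found CCR7 protein to be generally lower in PGC-1β-deficient cells, the opposite direction. In unstimulated cells *Ccl22* rose by 1.11 ± 0.09 (adjusted p = 5.3e-07), from 413 to 893 CPM, and *Fscn1* by 0.99 ± 0.09 (adjusted p = 1.4e-06). The list summed to 1987 to 2242 CPM in unstimulated shControl and 2828 to 3085 CPM in unstimulated sh*Ppargc1b* libraries, and to 2443 to 2807 against 3724 to 4397 CPM after IFN-β. Macrophage-like markers, which summed to 3217 to 3399 and 3057 to 3137 CPM in unstimulated cells, had 0 of 9 higher and 2 lower with knockdown, *Mrc1* (-1.51 ± 0.11, adjusted p = 2.0e-07) and *Mertk* (-0.40 ± 0.05, adjusted p = 2.7e-05). After IFN-β they summed to 4117 to 4377 and 3815 to 3916 CPM, and *Mrc1*, *Mertk*, *Fcgr1* (-0.27 ± 0.08, adjusted p = 0.0272) and *C1qb* (-0.31 ± 0.10, adjusted p = 0.0335) were lower. With IFN-β in shControl cells 6 of the 9 rose, *Fcgr1* most (3.09 ± 0.09, adjusted p = 1.8e-13), and 4 of 8 dendritic-like markers rose, with *Dpp4* at 0.95 ± 0.12 (adjusted p = 1.1e-05).

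Stromal-like markers, of interest for the TIMPs, summed to 34.7 to 50.0 and 40.6 to 53.7 CPM in unstimulated shControl and sh*Ppargc1b* libraries and to 14.6 to 22.9 and 23.2 to 29.4 CPM after IFN-β. Most of this was *Lepr*, at 35.0 and 38.3 CPM in unstimulated cells (knockdown log2 fold change 0.13 ± 0.14, edgeR adjusted p = 0.589) and 12 and 16.9 CPM after IFN-β, where it was the 1 of 8 tested that rose with knockdown (0.50 ± 0.15, adjusted p = 0.0269). *Col1a1*, *Col3a1* and *Pdgfra* stayed under 2 CPM in every group mean. Mast cell or basophil-like markers summed to 7.69 to 17.4 CPM in shControl and 13.0 to 26.4 CPM in sh*Ppargc1b* libraries. Of 6 tested, 2 were higher in unstimulated knockdown cells, *Kit* (0.93 ± 0.12, edgeR adjusted p = 3.1e-05) and *Gata2* (1.64 ± 0.19, adjusted p = 1.2e-05). The other 4 did not pass: *Mcpt8* (0.15 ± 0.75), *Cpa3* (0.12 ± 0.81), *Ms4a2* (0.36 ± 0.64) and *Prss34* (0.21 ± 0.80), with adjusted p from 0.752 to 0.943. Eosinophil-like markers summed to 36.8 to 69.1 and 27.2 to 49.8 CPM in unstimulated cells, with none of 5 past the threshold, and lymphocyte-like markers to under 1 CPM in every library. The part of these cells in the member differences was not tested.

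The genes whose pattern over the 12 libraries was most like that of a member were found by Pearson's r of log2 CPM among 8849 genes with a mean of at least 8 CPM. For *Mmp9* these were *Pf4*, *Mast2*, *Arap2*, *Slco4a1* and *Cdk18* (r = 0.985 to 0.992). For *Mmp12* they were *Ckb*, *Egr2*, *Tmed3*, *Qsox1* and *Pdpn* (r = 0.975 to 0.982), and for *Timp3* *Slc4a8*, *Rabgap1l*, *Slc22a23*, *Tmem123* and *Tbc1d4* (r = 0.978 to 0.980). The libraries fall into 4 groups and share their scaling, so these values mostly restate which group means are high, and they carry no test. By Spearman's rho, 1, 0 and 2 of the 5 genes were again among the 5 most like for *Mmp9*, *Mmp12* and *Timp3*.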

How the data were processed

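The table of RNA-seq counts covered 12 DC libraries, assigned to 4 groups of 3 by GEO's labels. Ribosomal RNA was depleted and fragments were read from both ends, and the authors, per the submitters' processing notes, trimmed reads with Trim Galore 0.6.0 and mapped them with STAR 2.7.8a to mm10 (GRCm38). The deposited values are raw counts per GENCODE gene, not normalized or pooled. Reads mapping to more than 1 place are not counted in this way of counting, so near-identical copies can be undercounted. The strand setting is not given in the sources used here.

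The fit used the quasi-likelihood F-test of edgeR 4.0.16 (R 4.3.3), as in the study's methods. Genes were kept by filterByExpr (minimum count 10, minimum total 15), TMM-scaled and fitted with 1 mean per group over all 12 libraries. Benjamini-Hochberg adjustment ran over 18228 genes with a threshold of 0.05, and every adjusted p is from this test unless DESeq2 is named. Positions, exon lengths and coding stretches come from GENCODE M21 and promoters from RefSeq. Differences are sh*Ppargc1b* minus shControl or IFN-β minus unstimulated. The member genes, gene lists and markers were chosen with earlier results of these data known. The planned design left only *Mmp9* untested in the knockdown comparisons, and this was widened to all 9 genes. Named list genes are, per list and comparison, the 3 past the threshold with the largest change and a mean of at least 1 CPM, genes in a count of 5 or fewer, and a few added for their role. For 1 list gene, counted in its list, no result is reported here. The fit was tested on simulated counts. Alternatives were other scaling, filters, DESeq2 1.42.0, the compared groups alone, a block by library code, a log2 limit of 1 and leaving out each library.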

Additional observations from a re-analysis of the deposited data

Results flagged for a closer look

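No member gene had a knockdown effect that passed the interaction test with IFN-β. Among the genes of the lists, 2 matrix genes did, with a log2 knockdown effect that differed between treatments by -0.96 ± 0.19 (SE) for *Fbn1* (edgeR adjusted p = 0.0263) and by -0.85 ± 0.15 for *Col4a2* (adjusted p = 0.0208). For *Col4a2* the knockdown value was 0.63 ± 0.12 in unstimulated and -0.22 ± 0.10 in IFN-β-treated cells. For *Fbn1* they were 0.32 ± 0.15 and -0.64 ± 0.11.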

How the results depend on the processing

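Of 891 recomputed values of the 9 genes, 844 kept their direction and, where tested, their side of the threshold. Another 33 passed only under an alternative, 8 were lost to a required log2 fold change of at least 1 and 5 to leaving out a library (4 for *Mmp9* and 1 for *Timp2*, given above). One value reversed, *Mmp12* with IFN-β in sh*Ppargc1b* cells, which was -0.17 (adjusted p = 0.0499) with library totals alone and 0.03 as reported. That scaling moved the median of all genes to -0.27 and -0.22 for IFN-β in shControl and sh*Ppargc1b* cells. It called 7 and 8 of the 9 genes there (reported 4 and 5), where all genes called were 10892 and 9891 (reported 8793 and 7760), and 84 genes for the interaction (reported 133).

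A log2 fold change of at least 1 left 644 and 576 genes for the knockdown without and with IFN-β (reported 4295 and 4414), 1935 and 1397 for IFN-β in shControl and sh*Ppargc1b* cells and 9 for the interaction, with 4, 3, 1 and 0 of the 9 genes in the first 4 comparisons. The 4 and 3 for the knockdown describe a set picked with the knockdown in view, and nothing is read from them. Without a filter 7 of the 9 genes and 8426 of all genes passed for IFN-β in shControl cells, and 525 genes, 2 of the 9 among them (*Mmp13* and *Mmp14*), passed for the interaction. DESeq2 called 452 genes for the interaction, 1 of the 9 among them (*Mmp14*, adjusted p = 0.00318). The cause of these differences was not tested.

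Library codes run in 3 sets of 4 with 1 library of each group. Deviations from the group means correlated at 0.0276 to 0.146 (median 0.0867) between libraries of the same set. Between libraries of different sets they correlated at -0.154 to 0.0565 (median -0.0436). The labels do not say whether the sets are batches, and the reported fit did not pair the libraries by these sets. With them as a replicate block, 7 of the 9 genes and 9356 of all genes passed for IFN-β in shControl cells, 6 and 8388 in sh*Ppargc1b* cells, and 425 genes for the interaction, with 2 of the 9 (*Mmp13* and *Mmp14*). Leaving out each library in turn gave 36 (without the third unstimulated shControl library) to 271 genes (without the second IFN-β-treated sh*Ppargc1b* library) for the interaction and 0 to 1 of the 9, *Mmp14* in that last case (adjusted p = 0.00917). It gave 4 to 7 of the 9 for IFN-β in shControl cells, where 7867 to 8946 of all genes passed, and 7 of the 9 and 8221 of all genes without the first unstimulated library. *Timp1* and *Timp3*, at 174 to 1453 counts in a library, had the largest errors of the 9 genes.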
